A study of Danio rerio with 7 samples.

Results

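The Hox cluster genes were examined in bulk RNA-seq libraries of dissected zebrafish hindbrains at 24 hpf. They were taken in order of paralogue group, from the low groups, which reach forward into the hindbrain, to group 13, which is switched on near the tail. Members were the rows of the count table whose gene name is hox, a cluster letter a to d and a number 1 to 13, with the letter of the duplicated copy read where the names table gave one. There were 47 such rows among 32189 gene IDs. The names table printed the copy letter for 15 of them, and for 23 more a single copy was left once the lettered names were taken out of the 49 Hox genes in RefSeq, so that HOXB2 was read as hoxb2a. The other 9 rows belong to pairs of copies that could not be told apart and are named by symbol and ID. RefSeq hoxa4a had no ID in the names table and was not analysed here.

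The 3 Fgf20aHOM libraries, called F2, F3 and F4 after their columns, each came from the hindbrain of a single embryo homozygous for the fgf20a (dob) mutation and born to homozygous parents, and their strain label is the mutant line itself. The 4 Cnt libraries, Cnt 1 to 4, each came from a single wild-type embryo of the LondonAB strain. All embryos were raised at 28.5°C and the labels describe the tissue as dissected hindbrain with surrounding tissues. Fgf20a is a secreted growth factor of neurons at segment centres, and the comparison asks which hindbrain genes depend on it. The mutation and the line that carries it cannot be told apart in these samples, and whether embryos of a group shared a clutch was not given in the sources used here. Both FGF20 rows, whose copies could not be told apart, had counts in every library, at 181 to 546 in Fgf20aHOM and 131 to 909 in Cnt. The dob mutation changes the protein and need not remove the transcript, so these rows do not check the labels.

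Hox genes encode homeodomain transcription factors that lie in clusters. The order of the genes along a cluster broadly matches the order of their anterior expression limits along the body. In the hindbrain the genes of groups 1 to 4 have nested limits at segment borders and give each segment, or rhombomere, its identity, whereas genes of higher groups begin in the spinal cord or further back. Retinoic acid switches on the anterior groups, the factor Egr2 drives several of them in certain segments, and Hox proteins bind DNA together with Meis and Pbx partners. Zebrafish carry duplicated clusters from which many copies were lost, hence the letters a and b.

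The libraries held 52900433 to 55915518 counts in Fgf20aHOM and 59800936 to 69801072 in Cnt, of which the Hox rows took 0.0917% to 0.111% in Fgf20aHOM and 0.0598% to 0.0930% in Cnt. Values below are normalised counts, in which every count was divided by the depth of its library after TMM scaling and brought back to the average depth. They contain gene length, so levels are compared between libraries and not between genes. A row at 0 had no count but need not lack the transcript, and an expected count of up to 3 was allowed for it. That limit was fixed and not derived from these libraries. The hindbrain segment marker egr2b was present in every library, between 2639 and 9215 in Fgf20aHOM and between 2776 and 4013 in Cnt. The 3 forebrain and midbrain markers found summed to 539 to 902 in Fgf20aHOM and 267 to 1015 in Cnt.

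Hox counts came mostly from groups 1 to 3 in both genotypes, and the libraries differed in how far back along the clusters counts reached. All 10 rows of groups 1 to 3 and all 3 of group 4 passed the filter on low counts, as did 9 of 12 in groups 5 to 8 and 0 of 22 in groups 9 to 13, so that 22 of 47 rows could be tested. Of the 25 that could not, 11 had no count in any library, all of them in groups 9 to 13. Groups 1 to 3 made up 82.7%, 78.5% and 81.7% of Hox counts in Fgf20aHOM F2, F3 and F4, and 94.3%, 96.8%, 76.0% and 76.9% in Cnt 1 to 4. The share was highest in Cnt 1 and Cnt 2, and the 3 Fgf20aHOM libraries lay inside the range of the Cnt libraries. The summed normalised count of groups 1 to 3 did not overlap, at 42892 to 52408 in Fgf20aHOM and 33931 to 41668 in Cnt. F4 and Cnt 3 were close, and of the 3 groups only the sum of group 3 did not overlap on its own. As a share of Hox counts, group 1 did not overlap and was lower in Fgf20aHOM, at 16.8% to 19.9% against 21.0% to 25.3% in Cnt. The shares of groups 2 and 3 overlapped.

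**Figure D1:**
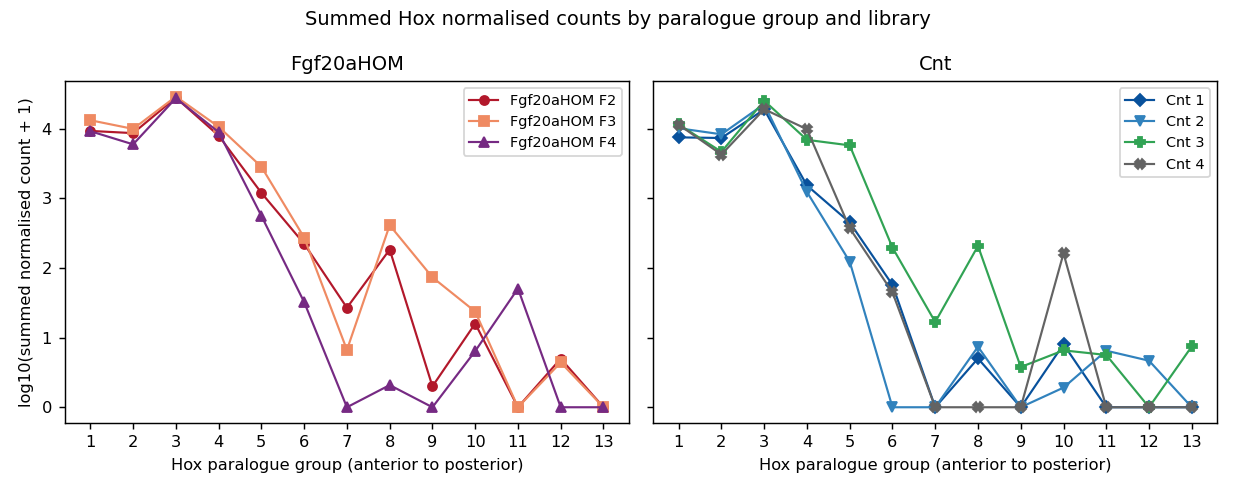
Summed normalised counts of each Hox paralogue group (y axis, log10 of the sum plus 1) for groups 1 to 13 (x axis), with 1 line for each library, Fgf20aHOM on the left and Cnt on the right. Lines lie close together for groups 1 to 3, and Cnt 1 and Cnt 2 drop at group 4, where they reach 1538 and 1238 against 6956 to 10718 in the other 5 libraries.

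Group 4 marks the back of the hindbrain, with hoxd4a a marker of the rearmost segment, r7. Its summed normalised count was 7996, 10718 and 8971 in Fgf20aHOM F2, F3 and F4, and 1538, 1238, 6956 and 9902 in Cnt 1 to 4. The Fgf20aHOM libraries were thus alike, while Cnt 1 and Cnt 2 were far below Cnt 3 and Cnt 4. For group 5, whose genes lie further back, the sum was 1201, 2852 and 561 in Fgf20aHOM, and 452, 123, 5792 and 373 in Cnt. Cnt 3 was the highest of all libraries here, and Cnt 2 the lowest. For groups 6 to 13 together it was 452, 789.5 and 87.7 in Fgf20aHOM, and 67.4, 16.5, 438 and 205 in Cnt. In bulk samples, fewer cells of a type and less RNA per cell cannot be told apart.

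In Cnt the spread between embryos was on balance wider for posterior genes, with overlap between the groups of genes. The highest Cnt library exceeded the lowest by a median of 1.73-fold over the genes of groups 1 to 3 with counts in all Cnt libraries (9 of 10). The range there was 1.31-fold to 36.2-fold, with hoxc1a at the top and hoxb1b next at 7.26-fold. For the 3 genes of group 4 the median was 8.27-fold and the range 5.97-fold to 57.7-fold. Of the 9 tested genes of groups 5 to 8, 6 had a Cnt library at 0, and the other 3 spanned 147-fold to 169-fold. Their lowest Cnt libraries held 1 count of hoxa5a, 5 of HOXB5 ENSDARG00000013057 and 34 of HOXB5 ENSDARG00000054030. Folds over so few counts are imprecise, so part of this width may come from low counts. In Fgf20aHOM the median was 1.45-fold for groups 1 to 3 and 1.77-fold for group 4. The ranges overlapped, at 1.21-fold to 2.30-fold and 1.18-fold to 1.82-fold. There, 2 of the 9 genes of groups 5 to 8 had a library at 0. The other 7 spanned 2.69-fold to 353-fold, the widest being hoxb8a with 1 count in F4. Of these 9 genes, 8 were highest among Cnt in Cnt 3 and 1 in Cnt 4.

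**Figure D2:**
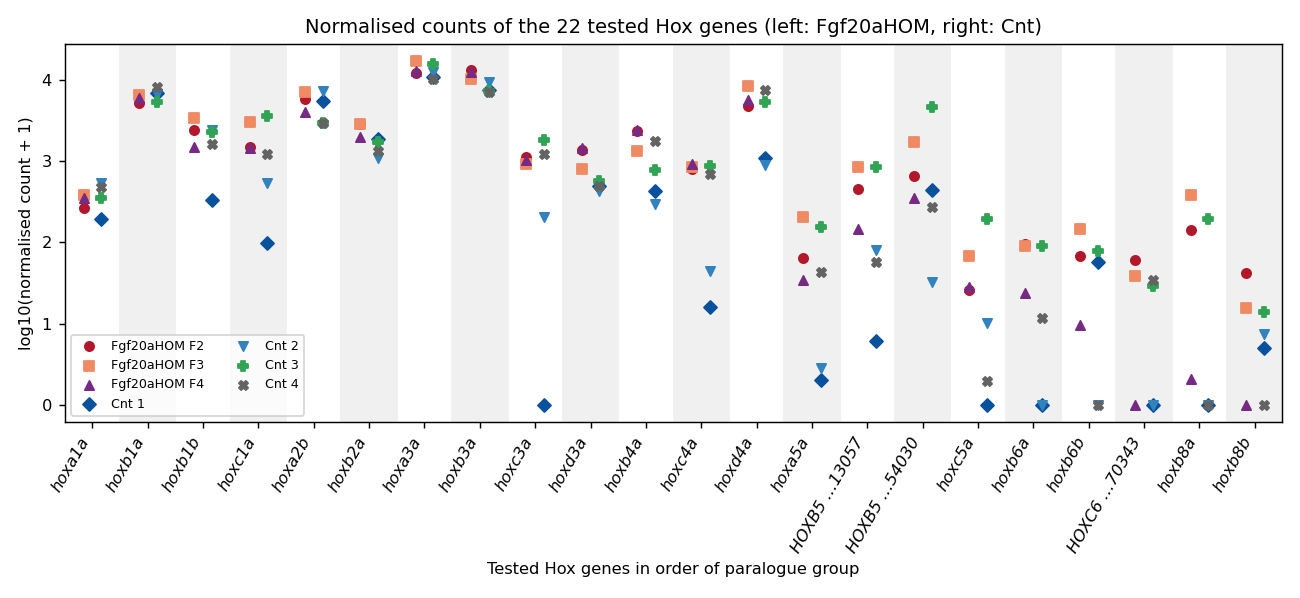
Normalised counts (y axis, log10 of the count plus 1) of the 22 tested Hox genes in order of paralogue group (x axis), with a point for each library, Fgf20aHOM left and Cnt right within each gene. Points of hoxb1a, hoxa3a and hoxb3a lie together, whereas Cnt 1 and Cnt 2 fall away for hoxc4a, hoxd4a and hoxa5a.

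Of the group 1 genes, hoxb1a, which gives segment r4 its identity and acts in facial motor neurons, was among the steadiest rows. Its normalised count was 5161, 6457 and 5928 in Fgf20aHOM F2, F3 and F4, and 6927, 6720, 5392 and 8157 in Cnt 1 to 4. The groups overlapped, and the edgeR log2 fold change of Fgf20aHOM over Cnt was -0.22 ± 0.21 (SE, quasi-likelihood adjusted p = 0.663). The gene hoxb1b, which acts early in hindbrain segmentation, had 2423, 3454 and 1502 in Fgf20aHOM, and 333, 2416, 2278 and 1617 in Cnt. Cnt 1 stood well below the rest, and the log2 fold change was 0.57 ± 0.56 (SE, edgeR adjusted p = 0.669). For hoxa1a the values were 264, 386 and 349.8 in Fgf20aHOM and 192, 535, 347 and 482 in Cnt, which overlapped (log2 fold change -0.22 ± 0.42, SE, edgeR adjusted p = 0.836).

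Group 2 held hoxa2b, which is expressed from r2 backwards and patterns the second pharyngeal arch, and hoxb2a, which begins at r3. The values of hoxa2b were 5839, 7142 and 4016 in Fgf20aHOM and 5524, 7269, 2969 and 2931 in Cnt. Cnt 3 and Cnt 4, the Cnt libraries with the most group 4 counts, had the least hoxa2b, a split that hoxb2a did not show. The log2 fold change of hoxa2b was 0.28 ± 0.36 (SE, edgeR adjusted p = 0.752). For hoxb2a the values were 2848, 2847 and 1974 in Fgf20aHOM and 1869, 1081, 1712 and 1348 in Cnt. Every Fgf20aHOM library was above every Cnt library, although F4 and Cnt 1 were close, and the log2 fold change was 0.77 ± 0.27 (SE, unadjusted p = 0.0164 and adjusted p = 0.208 by edgeR).

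Group 3 genes specify r5 and r6 and the segments behind them. Apart from hoxc3a, they spanned 1.31-fold to 1.52-fold across the Cnt libraries. The summed normalised count of the group was 28051, 29116 and 27648 in Fgf20aHOM F2, F3 and F4, and 18989, 22660, 25399 and 19124 in Cnt 1 to 4. The sums did not overlap, with all Fgf20aHOM libraries above all Cnt libraries, but the 4 genes did not contribute alike. For hoxa3a the values were 12090, 17087 and 12772 in Fgf20aHOM and 10979, 12661, 15712 and 10308 in Cnt, which overlapped (log2 fold change 0.17 ± 0.22, SE, edgeR adjusted p = 0.756). For hoxb3a they were 13483, 10299 and 12401 in Fgf20aHOM and 7521, 9360, 7313 and 7086 in Cnt. Here no Cnt library reached any Fgf20aHOM library, and the log2 fold change was 0.63 ± 0.20 (SE, unadjusted p = 0.0105 and adjusted p = 0.172 by edgeR).

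The gene hoxd3a had the smallest p of the Hox genes. Its normalised count was 1356, 799.7 and 1444 in Fgf20aHOM F2, F3 and F4, and 489, 433, 567 and 491 in Cnt 1 to 4. The 4 Cnt libraries lay within 1.31-fold of each other and below all Fgf20aHOM libraries, of which F3 was nearest to them. The log2 fold change was 1.28 ± 0.29 (SE, unadjusted p = 0.00146), and the adjusted p of 0.0726 by the edgeR quasi-likelihood test did not pass the limit of 0.01. DESeq2 gave hoxd3a an adjusted p of 0.00170 and a log2 fold change of 1.27, which passed. Over the 13 alternatives the log2 fold change stayed between 1.05 and 1.54 and the adjusted p between 0.00170 and 0.249. In the RefSeq annotation hoxd3a overlaps hoxd4a, hoxb3a overlaps hoxb4a, hoxb5a and hoxb6a, and hoxb1b overlaps hoxb5b and hoxb6b. Also hoxa3a overlaps hoxa5a, and reads of such genes could have been divided between them when they were counted.

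The group 4 genes were higher on average in Fgf20aHOM, with overlapping groups. For hoxb4a, expressed from the rear hindbrain backwards, the values were 2374, 1320 and 2405 in Fgf20aHOM and 432, 295, 789.8 and 1760 in Cnt. Cnt 4 lay above F3 and the other Cnt libraries below all Fgf20aHOM libraries, and the log2 fold change was 1.31 ± 0.55 (SE, unadjusted p = 0.0372 and adjusted p = 0.284 by edgeR). Without Cnt 4 it was 2.06 (edgeR adjusted p = 0.0595). For hoxd4a they were 4832, 8552 and 5635 in Fgf20aHOM and 1090, 900.3, 5296 and 7444 in Cnt, and the log2 fold change was 0.78 ± 0.71 (SE, edgeR adjusted p = 0.639). Cnt 3 and Cnt 4 were in the range of Fgf20aHOM and Cnt 1 and Cnt 2 several-fold below it. For hoxc4a, 790.4, 845 and 931 stood in Fgf20aHOM against 15.1, 43.0, 871 and 697 in Cnt, with the same split among Cnt libraries (log2 fold change 1.07 ± 1.14, SE, edgeR adjusted p = 0.697).

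**Figure D3:**
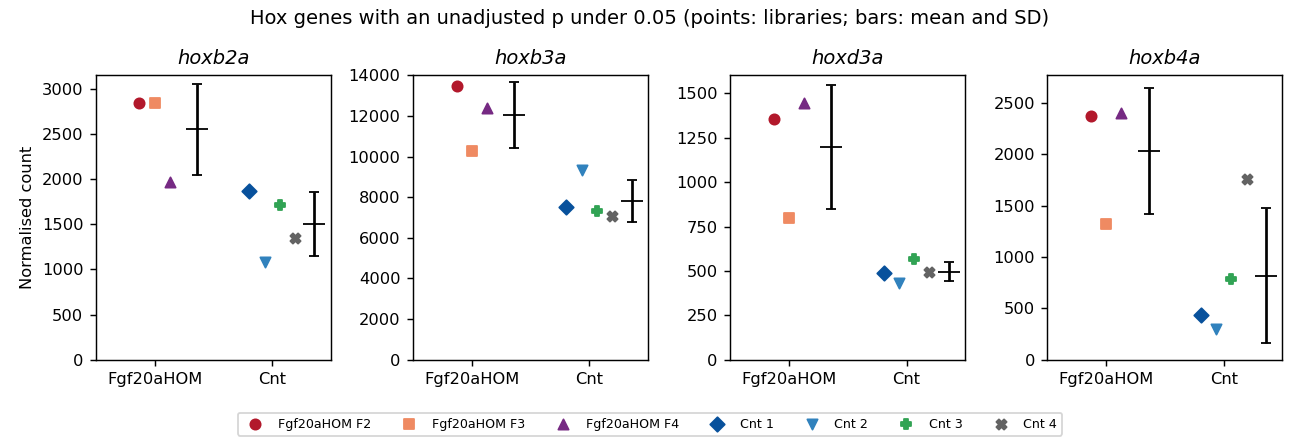
Normalised counts (y axes from 0) of hoxb2a, hoxb3a, hoxd3a and hoxb4a, the Hox genes with an unadjusted p under 0.05, with a point for each library and the mean and SD beside each group. For hoxd3a the 3 Fgf20aHOM libraries lie at 799.7 to 1444 and the 4 Cnt libraries at 433 to 567, and for hoxb4a Cnt 4 at 1760 lies among the Fgf20aHOM libraries.

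Although their paralogue number is low, hoxc1a and hoxc3a varied between Cnt libraries as the group 4 genes did. Mammals have no Hoxc genes of groups 1 to 3, whereas zebrafish keep these copies. The values of hoxc1a were 1495, 3006 and 1474 in Fgf20aHOM F2, F3 and F4, and 98.6, 533, 3570 and 1239 in Cnt 1 to 4. Those of hoxc3a were 1122, 930.2 and 1031 in Fgf20aHOM, and 0, 206, 1808 and 1239 in Cnt. In both genes Cnt 1 was the lowest library, Cnt 2 the next and Cnt 3 the highest. This is also the order of hoxc4a in Cnt, but not that of hoxa3a, hoxb3a or hoxd3a, which share the group of hoxc3a. The log2 fold changes were 0.55 ± 0.96 for hoxc1a (edgeR adjusted p = 0.826) and 0.34 ± 1.46 for hoxc3a (SE, edgeR adjusted p = 0.941). Without Cnt 1 that of hoxc3a was -0.079.

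Summed over the 14 rows of the hoxc cluster, the normalised count was 3502, 4908 and 3518 in Fgf20aHOM, and 114, 801, 6477 and 3234 in Cnt 1 to 4. The hoxd sums showed the same low pair, with 6190.5, 9352 and 7080 in Fgf20aHOM and 1579, 1333, 5863 and 7936 in Cnt. That pair came from hoxd4a alone, since hoxd3a was at 489, 433, 567 and 491 in Cnt. In hoxa and hoxb, where most of the abundant rows belong to groups 1 to 3, no single library was set apart. The hoxb sum of Cnt 3, the highest of Cnt, held 4591 from the group 5 HOXB5 row ENSDARG00000054030. In hoxb, however, every Fgf20aHOM sum was above every Cnt sum. These hoxb sums include hoxb2a and hoxb3a, which did not overlap on their own. The hoxa sums were 18263, 24837 and 17171 in Fgf20aHOM and 16703, 20467, 19198 and 13901 in Cnt, and the hoxb sums were 27773, 27670 and 24744 in Fgf20aHOM and 17593, 19989, 23317 and 20310 in Cnt. RefSeq hoxc3a overlaps other hoxc genes, among them hoxc4a and hoxc5a, so that these rows may share reads. In that annotation hoxc1a overlaps no other Hox gene.

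**Figure D4:**
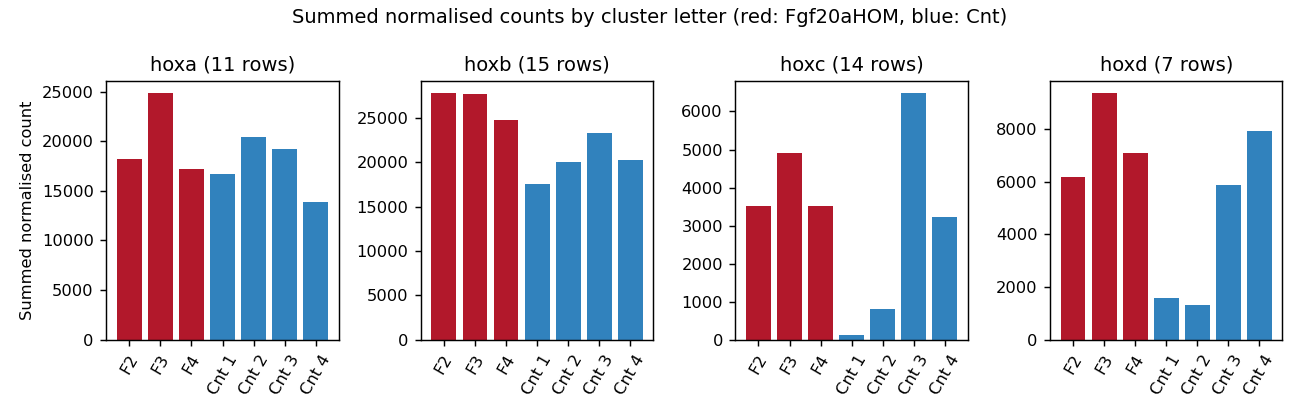
Summed normalised counts (y axes from 0) of the rows of each cluster letter in each library (x axis), Fgf20aHOM in red and Cnt in blue. In hoxc and hoxd the bars of Cnt 1 and Cnt 2 are the lowest, at 114 and 801 for hoxc. The hoxa and hoxb bars differ less, and in hoxb all Fgf20aHOM bars are above all Cnt bars.

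Group 5 genes begin at the border of hindbrain and spinal cord. The HOXB5 row ENSDARG00000054030 had 653, 1744 and 355 in Fgf20aHOM F2, F3 and F4, and 446, 31.1, 4591 and 274 in Cnt 1 to 4, so that Cnt 3 alone exceeded all Fgf20aHOM libraries. The other HOXB5 row, ENSDARG00000013057, had 459, 837 and 145 in Fgf20aHOM and 5.03, 80.6, 851 and 56.4 in Cnt. Both were highest in Cnt 3 and F3. Their log2 fold changes were -0.54 ± 1.44 (edgeR adjusted p = 0.892) and 0.95 ± 1.34 (SE, edgeR adjusted p = 0.777). The first turned to 1.87 without Cnt 3. For hoxa5a the values were 63.8, 204 and 33.6 in Fgf20aHOM, and 1.01, 1.83, 155 and 41.8 in Cnt. For hoxc5a they were 24.9, 66.9 and 27.1 in Fgf20aHOM, and 0, 9.16, 195 and 0.973 in Cnt. In both, F3 led the Fgf20aHOM libraries and Cnt 3 the Cnt libraries.

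Groups 6 to 8 pattern the trunk, and their counts were patchy between embryos. The gene hoxb8a had 143, 382 and 1.08 in Fgf20aHOM F2, F3 and F4, and 0, 0, 194 and 0 in Cnt 1 to 4. F2, F3 and Cnt 3 therefore carried it and the other 4 libraries had at most 1 count. The gene hoxb6a had 94.7, 89.6 and 22.7 in Fgf20aHOM and 0, 0, 89.1 and 10.7 in Cnt, and hoxb6b had 67.8, 146 and 8.66 in Fgf20aHOM and 56.3, 0, 78.0 and 0 in Cnt. For both of these F2, F3 and Cnt 3 were again the highest libraries. The HOXC6 row ENSDARG00000070343 had 59.8, 37.4 and 0 in Fgf20aHOM and 0, 0, 27.8 and 33.1 in Cnt, so that Cnt 4 joined them. The values of hoxb8b were 40.9, 14.7 and 0 in Fgf20aHOM, and 4.02, 6.41, 12.99 and 0 in Cnt. The untested hoxb7a had 25.9, 5.67 and 0 in Fgf20aHOM, and 0, 0, 15.8 and 0 in Cnt, and hoxc8a had 13 counts in F3 alone. The tested genes of groups 5 to 8 had log2 fold changes from -0.54 to 1.85, all with an edgeR adjusted p of at least 0.673, and 0 of 9 had an unadjusted p under 0.05. Such fitted values are sensitive to single libraries where several are at 0.

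Genes of groups 9 to 13, which pattern the tail and the fins, were near 0 throughout, with 20, 87 and 51 counts in all in Fgf20aHOM F2, F3 and F4, and 7, 11, 21 and 166 in Cnt 1 to 4. Most of these counts lay in single rows of single libraries. The gene hoxb9a had 64 counts in F3 and 0 elsewhere, hoxc11a had 46 in F4 and at most 5 elsewhere, and hoxa10b had 141 in Cnt 4 and at most 16 elsewhere. The row hoxb9a was thus seen in the Fgf20aHOM library with the most hoxb8a, whereas neither F4 nor Cnt 4 had more than 1 count of hoxb8a.

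Over all tested rows the edgeR quasi-likelihood test called 0 of 22 Hox genes changed, while 0.439% of all 19589 tested genes were called. A call needed an adjusted p no higher than 0.01, a change of 2-fold or more and more than 30 normalised counts throughout 1 genotype. These are the limits of the study, which applied them to DESeq2 results and not to edgeR. DESeq2, run without the filter on low counts, called 1 of 36 Hox rows with these limits, hoxd3a, and 2.52% of all genes, so that its share of Hox rows was near its own background. An unadjusted p under 0.05 was found for 4 of 22 Hox genes by edgeR (18.2%), which were hoxd3a, hoxb3a, hoxb2a and hoxb4a and all higher in Fgf20aHOM, against 15.6% of all tested genes, 8.44% in the higher and 7.21% in the lower direction. Groups did not overlap for 3 of 22 (13.6%), hoxd3a, hoxb3a and hoxb2a, against 17.5% of all genes, 9.46% in the higher and 8.03% in the lower direction. Over both directions these shares were near the background. The fitted log2 fold change was above 0 for 18 of 22 Hox genes, with a median of 0.78, against 47.3% and a median of -0.048 over all genes. The Hox rows share dissections and neighbouring positions and are not independent of each other. Without Cnt 3, 9 of 20 rows did not overlap, against 24.6% of all genes, and without F4 there were 7 of 24, against 26.2%. Without F2, 2 of 23 had an unadjusted p under 0.05, against 9.76% of all genes.

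**Figure D5:**
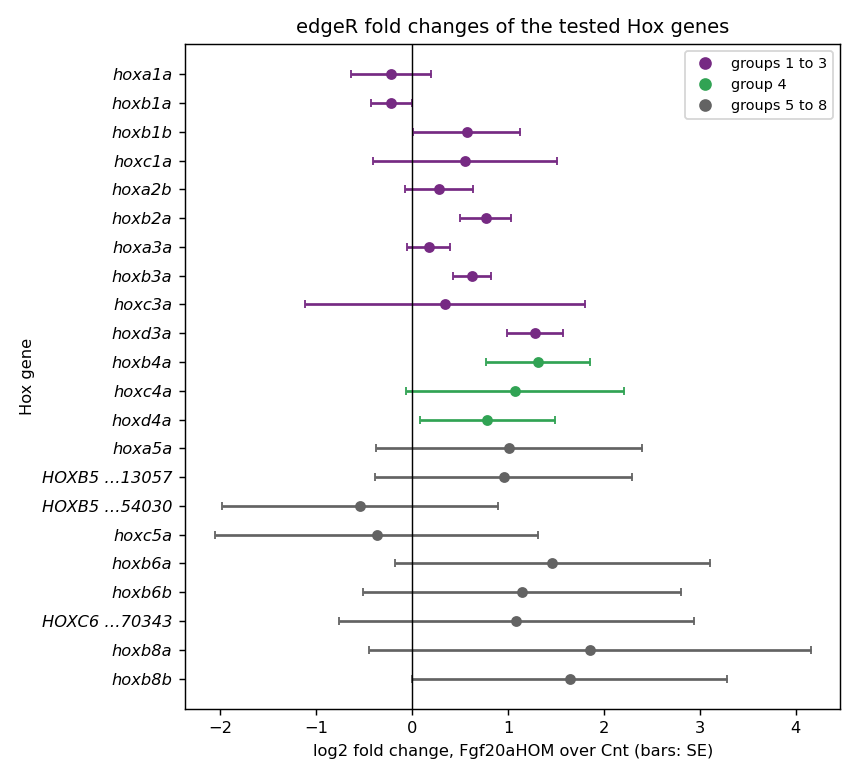
The edgeR log2 fold change of Fgf20aHOM over Cnt with its SE (x axis) for the 22 tested Hox genes in order of paralogue group (y axis), coloured by group. Of the 22 points 18 lie above 0, and the SE runs from 1.34 to 2.30 in groups 5 to 8, against 0.20 to 0.56 in groups 1 to 3 other than hoxc1a and hoxc3a.

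Genes that act beside the Hox genes were taken as lists. Of the hindbrain segment genes, the Egr2 genes are given here, and neither was called. For egr2b, the factor of r3 and r5, values were 6767, 9215 and 2639 in Fgf20aHOM and 4013, 3579, 3904 and 2776 in Cnt, and the log2 fold change was 0.80 ± 0.36 (SE, edgeR adjusted p = 0.325). For egr2a the log2 fold change was 0.77 ± 0.35 (SE, unadjusted p = 0.0498 and adjusted p = 0.319 by edgeR), and both genes overlapped between groups.

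Of the regulators of Hox expression 0 of 9 tested genes were called, and 4 (44.4%) had an unadjusted p under 0.05, all higher in Fgf20aHOM, against 0.439%, 15.6% and, in the higher direction, 8.44% of all tested genes. Groups did not overlap for 2 of the 9 (22.2%), rarab and raraa, against 17.5% of all tested genes and 9.46% in the higher direction. Both encode retinoic acid receptors, and the other receptor rows of the list overlapped. For rarab the values were 3935, 3163 and 2622 in Fgf20aHOM and 1698, 2117, 1969 and 1622 in Cnt (log2 fold change 0.81 ± 0.23, SE, edgeR adjusted p = 0.130), and for raraa they were 1068, 824 and 986 in Fgf20aHOM and 131, 315, 421 and 619 in Cnt (1.37 ± 0.46, SE, edgeR adjusted p = 0.191). For cyp26c1, which degrades retinoic acid, the log2 fold change was 0.68 ± 0.29 (edgeR adjusted p = 0.303), and for aldh1a2, which makes it, 1.47 ± 0.64 (SE, edgeR adjusted p = 0.309), with overlapping groups in both. The log2 fold change was below 0 for 2 of the 9, both of which also degrade retinoic acid and were named after their values were seen. They were cyp26b1 (-0.51, edgeR adjusted p = 0.550), with 11796, 20892 and 26529 in Fgf20aHOM and 43378, 30590, 16180 and 21955 in Cnt, and cyp26a1 (-0.90, edgeR adjusted p = 0.655). The values of cyp26a1 were 261, 423 and 180 in Fgf20aHOM and 135, 233, 1598 and 179 in Cnt. Only Cnt 3 lay above all Fgf20aHOM libraries. The posterior regulator cdx4, named after its values were seen, had 0 counts in all 7 libraries.

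Among the Hox cofactors 0 of 12 were called by edgeR and 2 (16.7%) had an unadjusted p under 0.05, near the 15.6% of all tested genes. The same 2, meis3 and meis2b, did not overlap between groups (16.7%), near the 17.5% of all tested genes. The gene meis3, a Hox partner of the hindbrain, had 13964, 11838 and 10633 in Fgf20aHOM and 3437, 4868, 5441 and 6461 in Cnt. All Fgf20aHOM libraries were well above all Cnt libraries (log2 fold change 1.27 ± 0.24, SE), and the edgeR adjusted p of 0.0356 missed the limit of 0.01, whereas DESeq2 called meis3 with the same limits. For meis2b the values were 11933, 11087 and 9716 in Fgf20aHOM and 6337, 6724, 7194 and 6417 in Cnt, without overlap (log2 fold change 0.71 ± 0.18, SE, edgeR adjusted p = 0.0996).

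Markers of other tissues were set beside the Hox values. Over all tested genes 47.3% had a log2 fold change above 0, and groups did not overlap for 9.46% in the higher and 8.03% in the lower direction. In the neural crest, which also expresses Hox genes, 5 of 5 log2 fold changes were above 0 (median 0.62), foxd3 and crestin did not overlap between groups, and the summed normalised count of the list was 10411 to 12612 in Fgf20aHOM and 4458 to 11800 in Cnt. In the neural list elavl3 and sox2 did not overlap, both higher in Fgf20aHOM, with sums of 123601 to 132918 in Fgf20aHOM and 95042 to 134778 in Cnt. All 3 otic vesicle markers, oc90, otomp and stm, were lower in Fgf20aHOM with an unadjusted p under 0.05 (7.21% of all tested genes, edgeR adjusted p = 0.158 to 0.266), and their sum was 4033 to 4969 in Fgf20aHOM and 7609 to 34279 in Cnt. The tail bud list, with 2 of 4 markers tested, summed to 44.9 to 179 in Fgf20aHOM and 296 to 627 in Cnt. Most of this sum was tbxta, which also marks the notochord, with 42.9 to 159 in Fgf20aHOM and 218 to 577 in Cnt. The notochord list summed to 1315 to 3856 in Fgf20aHOM and 2240 to 4668 in Cnt. Cnt 3, the library with the most group 5 counts, had the highest sum of these 3 lists. The paraxial mesoderm list summed to 2035, 2735 and 904.3 in Fgf20aHOM F2, F3 and F4, and 876, 3625, 3074 and 1648 in Cnt 1 to 4. The Fgf20aHOM libraries had the same order as for the group 5 sum. Among Cnt the highest was Cnt 2, which had the lowest group 5 sum. In Cnt 1 nearly all of the group 5 sum of 452 was the HOXB5 row ENSDARG00000054030 (446). For the other group 5 rows the lowest Cnt library was Cnt 1, which was also lowest of Cnt for paraxial mesoderm. The epidermis list summed to 124926 to 383871 in Fgf20aHOM and 49580 to 871804 in Cnt. The part of these tissues in the Hox differences was not tested.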

How the data were processed

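Each library was made from the hindbrain of 1 embryo with NuGEN Ovation amplification and Nextera XT and sequenced in paired-end mode. The authors aligned reads with STAR 2.5.1b, run by RSEM 1.2.31, to GRCz10 with Ensembl transcripts, and deposited gene-level estimated counts (expected counts) rounded to whole numbers, unscaled for depth. They were planned as counts and analysed with the same tests. RSEM divides reads that fit several genes, and the strand setting was not given in the sources used here. The Fgf20aHOM columns (F2 to F4) carry other numbers than the sample titles, so their group was known but not which sample each was.

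Genotype was the only term in the edgeR 4.0.16 quasi-likelihood F test (R 4.3.3, TMM, filterByExpr, robust), two-sided, adjusted by Benjamini-Hochberg over all 19589 genes that passed the filter. The SE printed with edgeR log2 fold changes was derived from the test, as the fold change without its sign over the square root of F. Alternatives were DESeq2 1.42.0, limma-voom with sample quality weights (limma 3.58.1), other scaling and filters, and leaving out each library. The fits were tested on simulated data with less spread than these libraries. Depth was 52900433 to 69801072 counts. Of all gene IDs, 81.9% had a symbol. The RefSeq annotation of GRCz12tu was used only for names and for which genes overlap. Every Hox row could be named, and list genes where p was under 0.05 or where they define segments. Members and lists were chosen with earlier results of these data known. Some genes of the lists are not reported here.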

Additional observations from a re-analysis of the deposited data

Results flagged for a closer look

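Among the 4 Cnt libraries 25 measures were searched for a library far from the rest, namely the normalised counts of the 22 tested Hox genes and the sums of groups 1 to 3, 4 and 5 to 13. A library stood apart where its distance to the next one, as a share of the whole range over Cnt, was above Dixon's limit. For normally distributed values chance gives about 1 in 20, or 1.25 of 25, and 6 were found. In all 6 the library was Cnt 3 and it was the highest. The 6 found are posterior Hox measures that stand apart in the same library, and they are not independent. Such counts, with zeros in several rows, also need not be normally distributed. The number found can therefore not be set against that expected by chance.

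The gap was 0.911 for the HOXB5 row ENSDARG00000013057 (851 in Cnt 3) and 0.909 for ENSDARG00000054030 (4591 in Cnt 3). It was 0.953 for hoxc5a (195 in Cnt 3), 0.880 for hoxb6a (89.1 in Cnt 3) and 1 for hoxb8a, where Cnt 3 had 194 and the other 3 Cnt libraries 0. The value of 1 follows from those zeros, and hoxb8a did not pass the filter on low counts without Cnt 3. For the summed normalised count of groups 5 to 13 it was 0.928, with 6230.4 in Cnt 3 against 519, 139 and 579 in Cnt 1, 2 and 4. In Fgf20aHOM, where 3 libraries are too few for this search, the sums were 1653, 3641 and 649.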

How the results depend on the processing

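No paired analysis was possible because the numbers of the Fgf20aHOM columns could not be matched to the sample titles and nothing ties a number to a clutch or day, so no replicate block was run. With DESeq2, 1 Hox gene (hoxd3a) and 1 listed gene (meis3) were called, against 0 and 0 by edgeR, where DESeq2 called 2.52% of all genes. DESeq2 was run with its own scaling and without the filter on low counts, so tool, scaling and filter changed at once. The count of Hox genes with an unadjusted p under 0.05 was 4 by edgeR and 9 of 22 with limma-voom and sample quality weights, 2 choices changed at once, which gave 19.5% over all genes, and it ran from 2 (without F2) to 5 when 1 library was left out. The count of genes without overlap ran from 3 to 9, the highest without Cnt 3 and then 7 without F4, where the shares over all genes were 24.6% and 26.2%. For single genes, 266 alternative values kept direction and call, 6 changed direction and 1 gained a call, which was hoxd3a by DESeq2 (1.27). With limma-voom and these weights the log2 fold change was 0.17 for hoxa1a, 0.87 for the HOXB5 row ENSDARG00000054030 and 2.97 for hoxc5a. With 1 library left out it ran from -1.325 (without F3) to 1.87 (without Cnt 3) for that HOXB5 row, from -0.91 (without F3) to 3.49 (without Cnt 3) for hoxc5a and from -0.079 (without Cnt 1) to 1.09 (without Cnt 3) for hoxc3a. The cause was not tested. No scaling turned a direction. The median log2 fold change of all genes was -0.057 with RLE scaling in edgeR and 0.032 with total counts only. For a single row at 0 in a library, an expected count of up to 3 was allowed, a fixed limit not derived from these data.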
